A study of Homo sapiens with 6 samples.

Results

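The Notch pathway was examined in the human embryonic stem cell line H1 through 10 genes: the receptors NOTCH1, NOTCH2 and NOTCH3, the ligands JAG1, JAG2 and DLL4, and the target genes HES1, HEY1, HEY2 and HEYL. They were chosen by symbol, with earlier results of these data known, from the 37803 gene symbols found once in both deposited expression tables. RNA was collected at day 2 of hematopoietic differentiation, when H1 cells are being turned into mesoderm, from wild-type cells (WT, n = 2) and from SNAI1-deleted cells, which the leading number of their titles puts into the groups SNAI1_KO_1 (n = 2) and SNAI1_KO_2 (n = 2). SNAI1 is a zinc-finger repressor that drives the epithelial-mesenchymal transition, and the comparison asks what its loss does to gene expression at this step. All 3 groups were H1 cells kept for 2 days in custom mTeSR1 medium with 40 ng/ml of activin A and 50 ng/ml of BMP4 per the labels, although the study's methods swap these doses. The deletions were made with CRISPR/Cas9 as frameshift mutations in a pair of lines, and the leading numbers were not matched to those lines. All groups thus derive from 1 cell line, and although the study states in general that experiments were repeated independently, it does not tie this to the 2 libraries of a group, so p-values measure only the spread between these libraries, which may be technical.

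Notch signaling passes between touching cells. A Jagged or Delta-like ligand on one cell pulls on a NOTCH receptor of its neighbour, the receptor is cut by an ADAM protease and then by gamma-secretase, and the freed intracellular domain enters the nucleus, where it joins RBPJ and switches on HES and HEY genes, which code for repressors. In the embryo this pathway is known for setting the rhythm of somites, and in the line of descent that leads to blood it is known for arterial identity and for the step from hemogenic endothelium to blood stem cells.

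Values are FPKM, which are fragment numbers divided by the length of the transcript and by the mapped fragments of the library. Each of the 2 tables held 1 library of every group, and the tables differed in their number of rows (38100 and 58324). A knockout library was therefore compared with the WT library of the same table. Where a gene's value in every library is given, both tables follow the order WT, SNAI1_KO_1, SNAI1_KO_2. Log2 differences are on the log2(FPKM + 1) scale, which understates changes of genes with low values, and come from a limma fit with the table as a block over the 13909 genes with a mean of at least 1 FPKM. Adjusted p-values are by limma with Benjamini-Hochberg adjustment over all of these genes, and "rose" or "fell" is written only where the adjusted p was under 0.05. The library sums of FPKM ran from 624414 to 633851 (first table) and from 603399 to 605924 (second table). Absolute depth is unknown, and the estimated depth of the knockout libraries was between 0.877 and 1.11 times that of the WT library of the same table. SNAI1 mRNA stood at 37.1 and 36.4 FPKM in WT and between 47.8 and 68.6 FPKM in the 4 knockout libraries. It was thus higher in every library labelled as a knockout, by 0.58 ± 0.074 (SE) on the log2 scale (limma, adjusted p = 0.00461, or 0.0502 without the first table's WT library and 0.0761 without the table as a block). A frameshift can leave the mRNA in place, so SNAI1 mRNA does not check the labels, and the directions below rest on them.

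Of the 10 Notch genes, 7 passed the filter on low values and DLL4, HEY1 and HEYL did not. With the knockout groups averaged and set against WT, 4 of the 7 rose (NOTCH1, NOTCH3, JAG1 and JAG2), 1 fell (HEY2), and NOTCH2 and HES1 did not pass the test. Of all genes tested, 31.3% passed it, 15.8% higher and 15.4% lower. The median log2 difference was 0.34 over the 7 genes and -0.050 over all genes tested. All libraries of the knockout groups lay on one side of both WT libraries for JAG1, JAG2 and HEY2, which happened for 34% of all genes tested. The 4 within-table differences had the same sign for 5 of the 7 genes, against 61.3% of all genes tested.

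**Figure D1:**
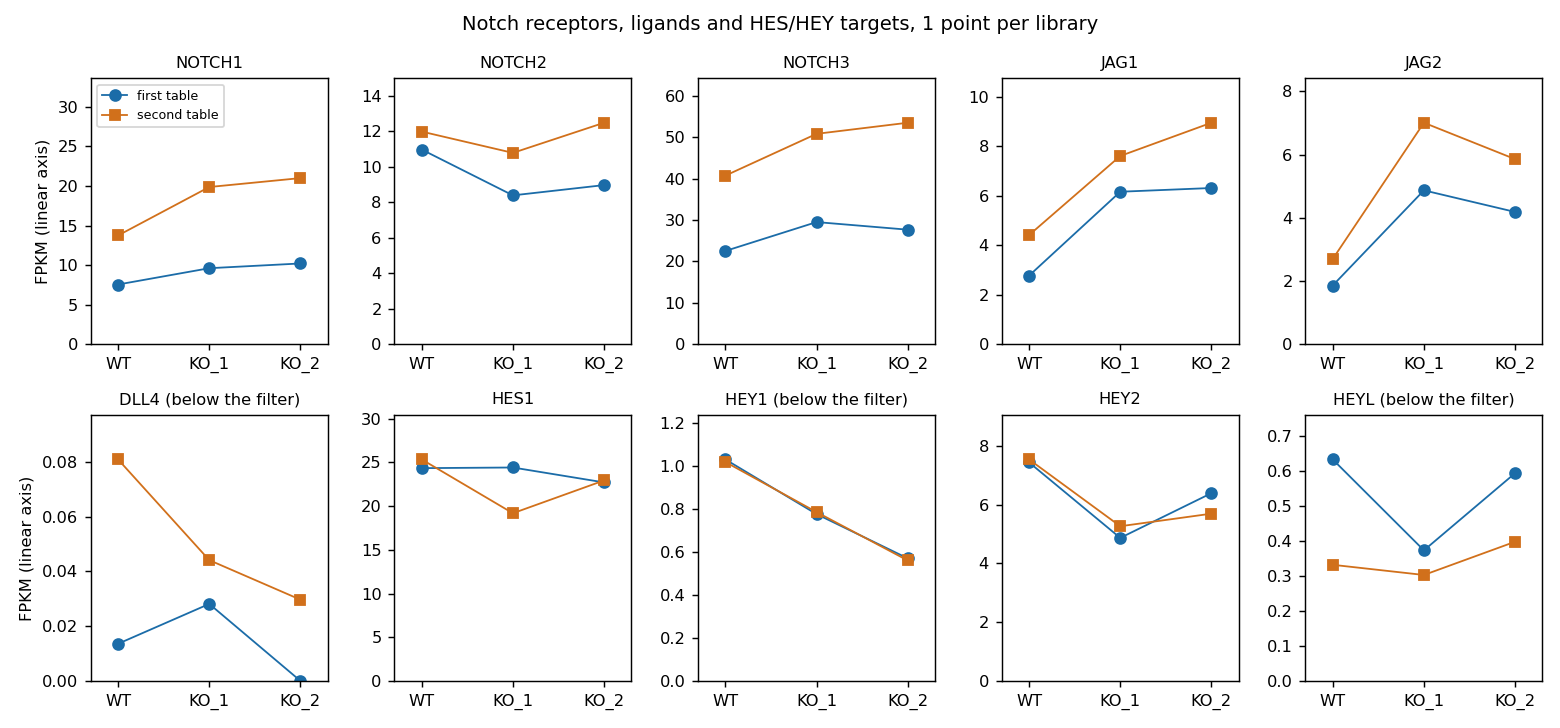
FPKM (linear axis from 0, one panel per gene with its own range) of the 10 Notch genes in the WT, SNAI1_KO_1 and SNAI1_KO_2 libraries. Circles are the first table and squares the second, 1 point per library, and lines join the libraries of a table. JAG1 and JAG2 were lower in both WT libraries than in any knockout library, HEY2 and HEY1 were higher in both WT libraries, and NOTCH1 and NOTCH3 differed more between the tables than between the groups.

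The level of these genes set them in much the same order in every library, compared within each library on the FPKM scale, which is per length. NOTCH3 ranked 1 to 2 of the 10 and HES1 ranked 1 to 3, so these neighbours traded places. NOTCH1 ranked 2 to 4 and NOTCH2 ranked 3 to 4. JAG1 (5 to 6), HEY2 (5 to 7) and JAG2 (6 to 7) followed, and their places were not separated either. HEY1 and HEYL ranked 8 to 9 and DLL4 was last in every library. The day 2 cells of all 3 groups therefore held mRNA of 3 NOTCH receptors and of HES1 at several FPKM or more, while the DLL4 ligand was near 0.

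Among the receptors, NOTCH1 and NOTCH3 rose and NOTCH2 did not pass the test. NOTCH1, the receptor needed for blood stem cell emergence in the embryo, was at 7.54 (WT), 9.60 (SNAI1_KO_1) and 10.2 (SNAI1_KO_2) FPKM in the first table, and at 13.7, 19.9 and 21.0 FPKM in the second. It was higher than WT in all 4 within-table differences, by between 1.27-fold and 1.53-fold. The WT library of the second table was above both knockout libraries of the first, so the groups overlapped over the tables. The second table gave 1.82 times the FPKM of the first in WT, 2.07 times in SNAI1_KO_1 and 2.06 times in SNAI1_KO_2. The log2 difference was 0.45 ± 0.082 (SE; limma, adjusted p = 0.0135). SNAI1_KO_1 (0.41, adjusted p = 0.0337 by limma) and SNAI1_KO_2 (0.48, adjusted p = 0.0193) each rose against WT. An antisense gene at the NOTCH1 locus was at most at 1.31 FPKM, and strand handling in the counting is not known.

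NOTCH3, a receptor best known from the mural cells of blood vessels, had the highest level of the 3 receptors in every library. It was at 22.5 (WT), 29.5 (SNAI1_KO_1) and 27.7 (SNAI1_KO_2) FPKM in the first table, and at 40.7, 50.8 and 53.5 FPKM in the second. All 4 within-table differences were upward, between 1.23-fold and 1.31-fold, and the groups overlapped over the tables as they did for NOTCH1. The table ratio was between 1.72 and 1.93 in the 3 groups. The log2 difference was 0.34 ± 0.062 (SE; limma, adjusted p = 0.0134).

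NOTCH2 was at 11.0 (WT), 8.38 (SNAI1_KO_1) and 8.96 (SNAI1_KO_2) FPKM in the first table, and at 11.98, 10.8 and 12.5 FPKM in the second. It was lower than WT in 3 of the 4 within-table differences, and SNAI1_KO_2 of the second table was the exception. The log2 difference was -0.18, with a 95% interval of -0.42 to 0.069 and an adjusted p of 0.225 by limma. NOTCH2NL, which carries a near-identical copy of the first exons of NOTCH2, was at 2.59 (WT), 1.57 (SNAI1_KO_1) and 1.47 (SNAI1_KO_2) FPKM in the first table and at 4.29, 2.01 and 2.33 FPKM in the second. It fell by 0.62 on the log2 scale (adjusted p = 0.0216 by limma), and how shared fragments were divided between the genes is not given in the sources used here, so the NOTCH2 value is uncertain.

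The calls of NOTCH1 and NOTCH3 depended on the fit. Without the table as a block the adjusted p by limma was 0.682 for NOTCH1 and 0.745 for NOTCH3, and without the filter on low values it was 0.0556 and 0.0519. With a library left out, the NOTCH1 call was lost without the WT library of the second table (0.105), its SNAI1_KO_1 library (0.0572) or its SNAI1_KO_2 library (0.0574), and the NOTCH3 call without either WT library (0.0848 in the first table and 0.0948 in the second), the SNAI1_KO_1 library of the first table (0.0526) or the SNAI1_KO_2 library of the second (0.0514). Markers of mural and smooth muscle cells moved with the NOTCH3 rise. Their summed level was between 404 and 445 FPKM in WT and between 1569 and 1809.7 FPKM in the knockout libraries, nearly all of it TAGLN, an actin-binding protein that many other cells also make. Of 4 of these markers tested, TAGLN and CNN1 rose and ACTA2 and PDGFRB did not pass the test, and MYH11, which defines mature smooth muscle, was under 1 FPKM in every library. The part of these markers in the result was not tested.

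**Figure D2:**
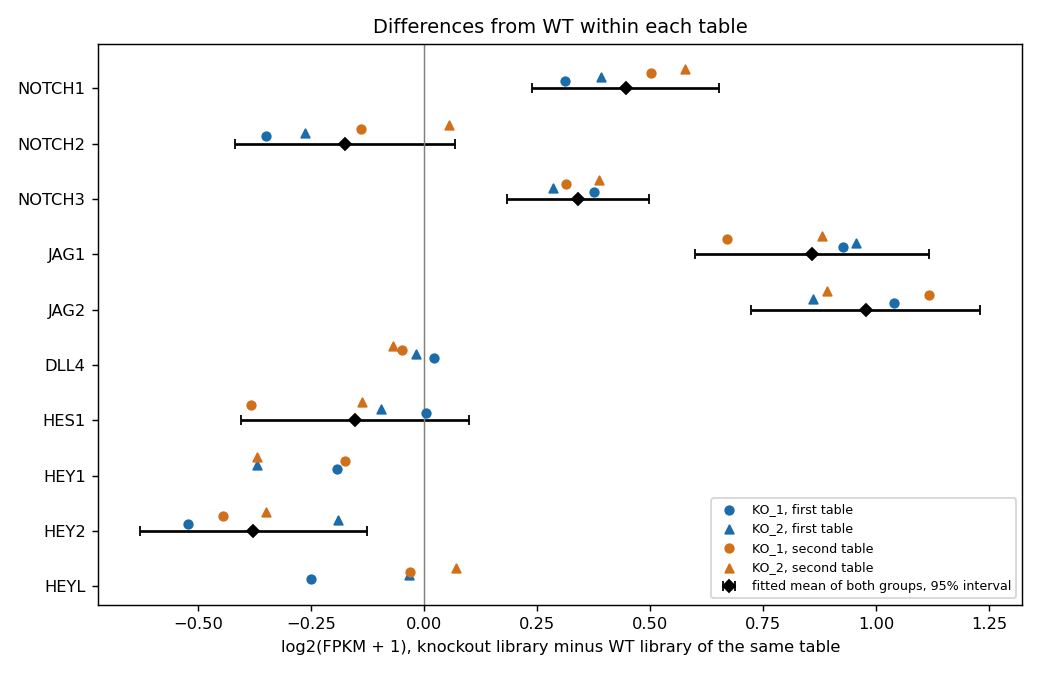
Log2 difference on the log2(FPKM + 1) scale between each knockout library and the WT library of its table (x axis) for the 10 Notch genes. Circles are SNAI1_KO_1 and triangles SNAI1_KO_2, blue is the first table and orange the second, and black diamonds with bars are the fitted mean of both knockout groups with its 95% interval for the 7 genes tested. JAG1 and JAG2 lie farthest to the right, at 0.86 and 0.98, and the intervals of NOTCH2 and HES1 cross 0.

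The Jagged ligands showed the largest changes of the 10 genes. JAG1, a ligand of the arterial and mural program, was at 2.77 (WT), 6.16 (SNAI1_KO_1) and 6.31 (SNAI1_KO_2) FPKM in the first table, and at 4.41, 7.61 and 8.95 FPKM in the second. Every knockout library was above both WT libraries. The folds over WT were 2.22 and 2.28 in the first table, and in the second they were 1.72 and 2.03. JAG1 rose by 0.86 ± 0.10 (SE) on the log2 scale, with an adjusted p of 0.00358 by limma, and it rose in SNAI1_KO_1 (0.80, adjusted p = 0.00934) and in SNAI1_KO_2 (0.92, adjusted p = 0.00568).

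JAG2, the second Jagged ligand, was at 1.86 (WT), 4.87 (SNAI1_KO_1) and 4.18 (SNAI1_KO_2) FPKM in the first table, and at 2.70, 7.01 and 5.86 FPKM in the second. The groups did not overlap, and SNAI1_KO_1 had the higher value in both tables. Over WT this was 2.62-fold and 2.25-fold in the first table, and 2.60-fold and 2.17-fold in the other. JAG2 rose by 0.98 ± 0.10 (SE) on the log2 scale, with an adjusted p of 0.00227 by limma, and it rose in SNAI1_KO_1 (1.08, adjusted p = 0.00353) and in SNAI1_KO_2 (0.88, adjusted p = 0.00615).

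The size of the Jagged rises depends on the pseudocount, from 0.34 to 1.02 for JAG1 and from 0.33 to 1.23 for JAG2 with a pseudocount of 10 and of 0.1. Both Jagged calls held without any 1 library and without the filter on low values, and were lost without the table as a block (adjusted p = 0.0956 for JAG1 and 0.0653 for JAG2 by limma). The summed level of pluripotency markers moved the same way, and most of it was POU5F1. It was between 629 and 737 FPKM in WT and between 855 and 1165 FPKM in the knockout libraries. Of 5 tested, 3 rose (POU5F1, NANOG and DPPA4), and SOX2, at 2.18 FPKM or less, and ZFP42 did not pass the test. The part of these markers in the result was not tested, and in RNA from mixed cells a smaller share of cells of a type and less RNA per cell cannot be told apart.

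DLL4, the Delta-like ligand of arterial endothelium, was at 0.0136 (WT), 0.0281 (SNAI1_KO_1) and 0 (SNAI1_KO_2) FPKM in the first table, and at 0.0809, 0.0441 and 0.0297 FPKM in the second. It was at most 0.0809 FPKM in every library and the groups overlapped, so no fold is given. An exact permutation test of the WT label within the tables gave p = 0.333 (two-sided), where the smallest p that its 9 arrangements allow is 0.111.

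The promoter of JAG2 is shown because it was the only one of the members' promoters with a SNAI1-type E-box, the letters CAGGTG or, on the other strand, CACCTG, that SNAI1 is known to recognise. Promoter sequence came from RefSeq (GRCh38.p14, 250 bases before the annotated start, outside the transcript), where 9 of the 10 genes were matched, and HEY1 was not. The E-box was found in 1 of these 9 promoters and in 17.5% of 35116 promoters of the same length. In JAG2 (chr14:105168777-105169026, minus strand) it lies between positions -36 and -31 from the start and is given in capitals.
JAG2: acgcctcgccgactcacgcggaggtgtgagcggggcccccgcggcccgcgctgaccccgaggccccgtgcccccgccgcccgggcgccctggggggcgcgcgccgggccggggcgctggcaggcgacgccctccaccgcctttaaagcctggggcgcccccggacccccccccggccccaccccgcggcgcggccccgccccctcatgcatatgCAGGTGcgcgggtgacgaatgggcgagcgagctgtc
A match of letters is a description and not a site, and where a promoter had no match this says only that these letters are not in this window.

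Of the 4 target genes, HEY2 fell, HES1 did not pass the test, and HEY1 and HEYL were below the filter. HES1, a direct Notch target in many tissues that also answers to other signals, was at 24.4 (WT), 24.4 (SNAI1_KO_1) and 22.7 (SNAI1_KO_2) FPKM in the first table, and at 25.4, 19.2 and 22.9 FPKM in the second. The SNAI1_KO_1 library of the second table stood lowest, and the groups overlapped. The log2 difference was -0.15 ± 0.10 (SE), with a 95% interval of -0.41 to 0.099 and an adjusted p of 0.295 by limma, and no alternative moved it past the threshold. The upper end of this interval lies below the lower ends for JAG1 (0.60) and JAG2 (0.72).

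HEY2, a HEY repressor known from arteries and the heart, was at 7.44 (WT), 4.87 (SNAI1_KO_1) and 6.39 (SNAI1_KO_2) FPKM in the first table, and at 7.54, 5.26 and 5.69 FPKM in the second. Both WT libraries were above all knockout libraries, and the tables differed little for this gene. An antisense gene at its locus was at most at 0.397 FPKM. The knockout values were between 0.654 and 0.859 times that of WT. HEY2 fell by 0.38 on the log2 scale (SE 0.099, adjusted p = 0.0394 by limma). SNAI1_KO_1 fell by 0.49 (adjusted p = 0.0353), and SNAI1_KO_2 gave -0.27 (adjusted p = 0.145). The call over both groups is a narrow one: it was lost without the table as a block (0.198), without the filter on low values (0.103) and without each of the 6 libraries in turn, with adjusted p-values between 0.0689 and 0.192 by limma.

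HEY1, the related HEY factor, was at 1.03 (WT), 0.775 (SNAI1_KO_1) and 0.569 (SNAI1_KO_2) FPKM in the first table, and at 1.02, 0.784 and 0.559 FPKM in the second. The 2 tables gave almost the same values, all knockout libraries were below both WT libraries, and SNAI1_KO_2 was the lowest group in both. Its mean of 0.789 FPKM kept it out of the main test. The exact permutation test gave p = 0.222 (two-sided, smallest possible 0.111), and the fit without the filter put HEY1 at -0.28 on the log2 scale (limma, adjusted p = 0.188). HEYL, the third HEY factor, was at 0.633 (WT), 0.373 (SNAI1_KO_1) and 0.593 (SNAI1_KO_2) FPKM in the first table and at 0.332, 0.303 and 0.398 FPKM in the second. Here the order of the groups differed between the tables, and the exact permutation p was 0.667 (two-sided).

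Endothelial markers, checked because DLL4 and the HEY genes are best known from arteries, were close to absent. Their sum was between 5.25 and 5.31 FPKM in WT and between 3.36 and 4.95 FPKM in the knockout libraries. Of 9 markers, 6 were under 1 FPKM in every library, EMCN was at 0 in all of them, and TEK, the only one tested, did not pass the test (adjusted p = 0.650 by limma). CD34 was at 1.15 and 1.11 FPKM in WT and between 0.0423 and 0.201 FPKM in the knockout libraries. Mesoderm and primitive streak markers were abundant, and their sum, like HEY2, was lower in the knockout libraries. It was between 1398 and 1430.0 FPKM in WT and between 1025 and 1124 FPKM in the knockout libraries. The largest fall in FPKM was that of APLNR, from 621 and 573 FPKM in WT to between 217 and 280 FPKM. Of 7 tested, EOMES, MESP1, APLNR, KDR and PDGFRA fell and MIXL1 did not pass the test. T went the other way and rose, from 17.8 and 38.7 FPKM in WT to between 130 and 251 FPKM in the knockout libraries. The part of these markers in the HEY2 and HEY1 values was not tested.

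The promoters of HES1, HEY2 and HEYL are shown because each holds a core RBPJ motif, TGGGAA or, on the other strand, TTCCCA, the letters through which RBPJ is known to bring Notch to its targets. The motif was in 3 of the 9 matched promoters and in 20.8% of all 35116 promoters. HES1 (chr3:194135898-194136147, plus strand) carries a pair of copies between -84 and -79 and between -70 and -65 from the start, HEY2 (chr6:125749382-125749631, plus strand) carries 1 copy on the other strand between -213 and -208, and HEYL (chr1:39639644-39639893, minus strand) carries copies between -178 and -173 and between -99 and -94. Motif copies are in capitals, and none overlaps an E-box.
HES1: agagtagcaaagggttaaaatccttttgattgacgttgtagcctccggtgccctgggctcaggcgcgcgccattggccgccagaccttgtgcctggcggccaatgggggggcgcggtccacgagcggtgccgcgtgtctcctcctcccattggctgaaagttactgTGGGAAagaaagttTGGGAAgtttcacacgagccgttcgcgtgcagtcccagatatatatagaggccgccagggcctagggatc
HEY2: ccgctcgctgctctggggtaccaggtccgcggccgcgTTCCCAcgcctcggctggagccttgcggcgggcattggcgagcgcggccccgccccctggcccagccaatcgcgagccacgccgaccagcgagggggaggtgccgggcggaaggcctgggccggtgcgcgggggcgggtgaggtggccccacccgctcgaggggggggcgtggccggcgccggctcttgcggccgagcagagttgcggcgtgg
HEYL: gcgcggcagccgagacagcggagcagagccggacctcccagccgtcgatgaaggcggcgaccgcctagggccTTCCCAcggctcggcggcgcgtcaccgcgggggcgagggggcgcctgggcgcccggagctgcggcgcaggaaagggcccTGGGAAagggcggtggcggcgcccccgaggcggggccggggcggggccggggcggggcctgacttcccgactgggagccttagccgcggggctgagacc
The promoters of NOTCH1, NOTCH2, NOTCH3, JAG1 and DLL4 held neither motif. RBPJ mRNA itself was at 28.5 (WT), 22.03 (SNAI1_KO_1) and 19.8 (SNAI1_KO_2) FPKM in the first table, and at 26.6, 21.5 and 20.1 FPKM in the second, lower in every knockout library than in both WT libraries. RBPJ fell by 0.39 on the log2 scale (adjusted p = 0.0102 by limma), a call that was lost without the WT library of either table (0.0872 for the first and 0.0542 for the second) or without the table as a block (0.141).

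No difference between the knockout groups passed the test. Of all 13909 genes, 0 passed the threshold in SNAI1_KO_2 against SNAI1_KO_1 by limma, 521 had an unadjusted p under 0.05, and the smallest adjusted p was 0.324. Among the 7 Notch genes the log2 difference ran from -0.20 for JAG2 to 0.21 for HEY2, with 95% intervals reaching from -0.49 to 0.50. Differences of this size between the groups thus did not pass the test with 2 libraries each, and equality is not shown. Against WT, SNAI1_KO_1 had 5 of the 7 genes past the threshold, 4 higher and 1 lower, beside 23.9% of all genes tested (13% higher and 10.9% lower). SNAI1_KO_2 had 4 past it, all higher, beside 25.5% of all genes tested (13.5% higher and 12% lower). Both contrasts use the same WT libraries.

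Around these genes, 9 lists of Notch pathway genes held 68 tested genes, of which 17 rose and 13 fell, 44.1% against 31.3% of all genes tested. Without the 7 members, 13 of 61 rose and 12 fell (41%). These shares are raised by 4 of the genes that rose (CNTN1, MFAP5, DTX3L and BEND6), which were under 1 FPKM in both WT libraries and entered the test only through their knockout values. The share of all genes called also depends on level, and was 36% with a minimum mean of 5 FPKM. The lists were chosen with earlier results of these data known, and the difference in share was not tested. The median log2 difference over the lists was -0.12, beside -0.050 over all genes tested. The ligands and the HES/HEY factors moved in both directions. DLL3, a Delta-like protein that acts inside the same cell and dampens Notch, had the highest FPKM of the 5 canonical ligand genes in every library, at 109.8 (WT), 51.9 (SNAI1_KO_1) and 65.4 (SNAI1_KO_2) FPKM in the first table and at 100.9, 57.9 and 54.1 FPKM in the second. The groups did not overlap, and DLL3 fell by 0.87 on the log2 scale (SE 0.093, adjusted p = 0.00258 by limma), opposite to JAG1 and JAG2. HES6, a HES family member that counteracts HES1 and is not itself a typical Notch target, was at 24.4, 63.1 and 59.5 FPKM in the first table and at 66.4, 146.3 and 135.2 FPKM in the second, in the order WT, SNAI1_KO_1, SNAI1_KO_2. It rose by 1.18 (SE 0.067, adjusted p = 0.00041 by limma), but the second table gave between 2.27 and 2.73 times the FPKM of the first, so that the groups overlapped over the tables, and without the table as a block the adjusted p was 0.337. HES4 rose by 0.43 (adjusted p = 0.0258). DLL1, NOTCH4, HES2, HES3, HES5 and HES7 were below the filter.

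**Figure D3:**
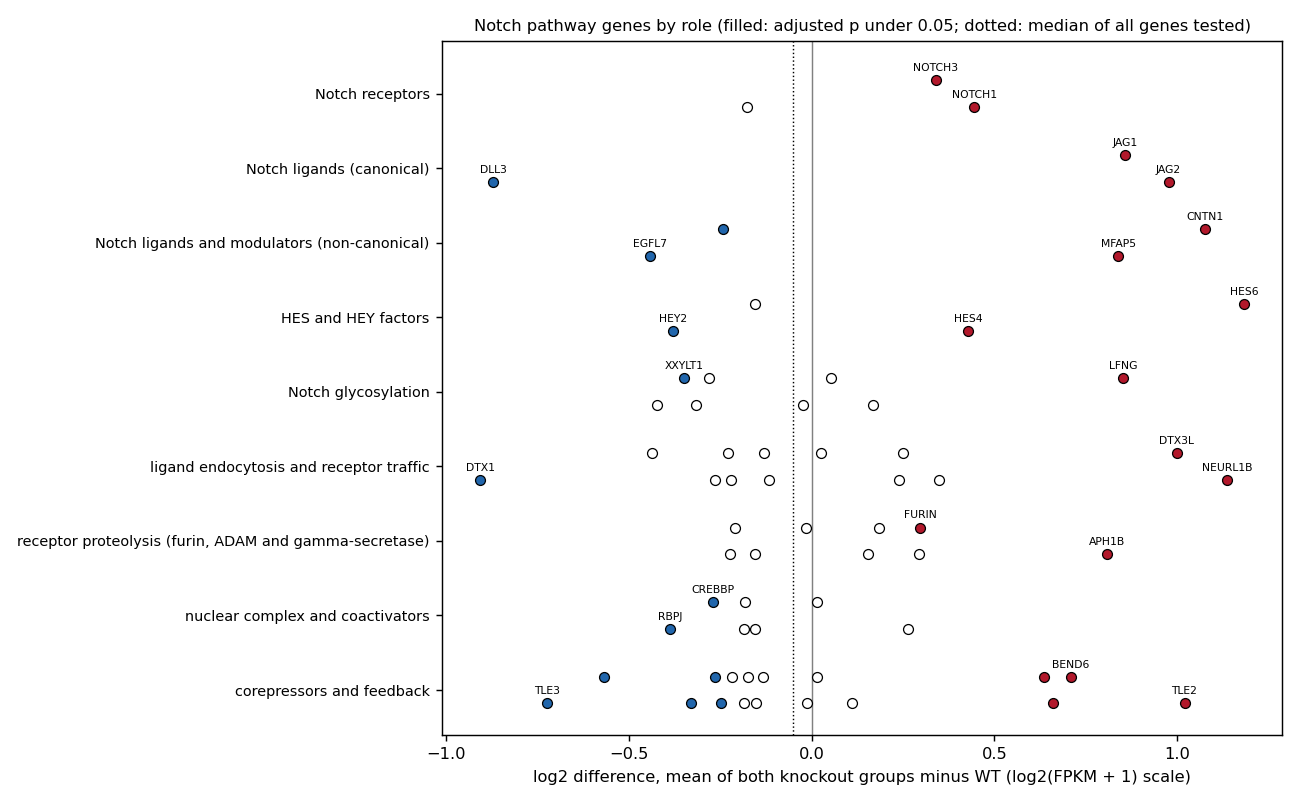
Log2 difference between the mean of both knockout groups and WT on the log2(FPKM + 1) scale (x axis) for the 68 Notch pathway genes tested, by role (y axis). Filled points passed an adjusted p of 0.05 (red higher, blue lower), open points did not, and the dotted line marks the median of all genes tested, -0.050. The canonical ligands split into JAG1 and JAG2 on the right and DLL3 on the left.

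Among the genes that shape the receptor and the ligand, calls were no more frequent than the 31.3% of all genes tested. Of 8 glycosylation genes tested, LFNG rose and XXYLT1 fell (25% called). LFNG, a fringe enzyme that favours Delta-like over Jagged ligands, was at 1.46 (WT), 3.05 (SNAI1_KO_1) and 3.22 (SNAI1_KO_2) FPKM in the first table and at 2.02, 4.34 and 5.40 FPKM in the second, and it rose by 0.85 on the log2 scale (adjusted p = 0.00652 by limma, and 0.0630 without the WT library of the second table, 0.116 without the table as a block and 0.0505 without the filter). Of 13 genes for ligand endocytosis and receptor traffic, 2 rose and 1 fell (23.1% called). Of those that rose, DTX3L was under 1 FPKM in both WT libraries and entered the test only through its knockout values. NEURL1B, an E3 ubiquitin ligase of the Neuralized family, which prepares ligands for endocytosis, was at 1.26, 3.50 and 3.16 FPKM in the first table and at 1.43, 5.77 and 4.54 FPKM in the second, in the order WT, SNAI1_KO_1, SNAI1_KO_2. It rose by 1.14 (adjusted p = 0.0042), every knockout library was above both WT libraries, and this call held under all 14 alternatives. DTX3L rose by 0.998 (adjusted p = 0.00747; 0.0647 without the first table's WT library), and DTX1, a Deltex ubiquitin ligase often induced by Notch, fell by 0.90 (adjusted p = 0.0118 by limma; 0.0995 without the first table's WT library and 0.0831 without the second's).

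Of 9 genes for receptor proteolysis, 2 rose and the others did not pass the test by limma (22.2% called, beside 31.3% of all genes). APH1B, a gamma-secretase subunit, was at 4.43 (WT), 9.10 (SNAI1_KO_1) and 9.35 (SNAI1_KO_2) FPKM in the first table and at 4.49, 7.95 and 7.88 FPKM in the second. The WT libraries nearly matched, the knockout libraries all lay above them, and APH1B rose by 0.81 on the log2 scale (adjusted p = 0.00365), a call that held under all 15 alternatives. FURIN, the convertase that first cuts the receptor, rose by 0.30 (adjusted p = 0.0473). Of 7 genes of the nuclear complex, 2 passed the test (28.6%, near the share of all genes): besides RBPJ, the coactivator CREBBP fell by 0.27 (adjusted p = 0.0404 by limma).

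Of 17 corepressor and feedback genes, 4 rose and 5 fell (52.9% called), beside 31.3% of all genes called. This share is raised by BEND6, which was under 1 FPKM in both WT libraries and entered the test only through its knockout values. Among the TLE genes, which code for the Groucho-type corepressors that HES and HEY proteins recruit, TLE2 rose, TLE1 and TLE3 fell, and TLE4 gave -0.17 and did not pass the test (adjusted p = 0.146 by limma). TLE3 was at 51.5 (WT), 33.4 (SNAI1_KO_1) and 30.6 (SNAI1_KO_2) FPKM in the first table and at 65.1, 36.0 and 39.5 FPKM in the second, and it fell by 0.72 on the log2 scale (adjusted p = 0.0022 by limma). TLE2 was at 4.83, 12.1 and 12.5 FPKM in the first table and at 42.3, 83.4 and 70.7 FPKM in the second, in the order WT, SNAI1_KO_1, SNAI1_KO_2. It rose by 1.02 (adjusted p = 0.0026), while the second table gave between 5.64 and 8.77 times the FPKM of the first, so its level depends on the table more than on the group. BEND6 rose by 0.71 (adjusted p = 0.0305). The others past the threshold, named after their values were seen, were NRARP and CTBP2 (higher) and L3MBTL3, TLE1, SPEN and CTBP1 (lower).

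Of 7 non-canonical ligands or modulators, 4 were tested, and these passed the threshold with 2 in each direction, beside 31.3% of all genes tested. The pair that rose owed its place among the tested genes to the knockout values. CNTN1, a contactin, rose by 1.08 on the log2 scale (adjusted p = 0.0106 by limma), MFAP5, a microfibril protein, rose by 0.84 (adjusted p = 0.0416), and EGFL7, a secreted EGF-like protein, fell by 0.44 (adjusted p = 0.0353). MFAP2, named after its value was seen, fell by 0.24 (adjusted p = 0.0226 by limma). CNTN1 lost its call without the WT library of either table (0.0660 for the first and 0.0909 for the second). EGFL7, MFAP5, HES4, XXYLT1, FURIN, CREBBP and BEND6 lost theirs without at least 5 of the 6 libraries in turn, while DLL3, HES6, NEURL1B, APH1B, TLE2 and TLE3 kept theirs without any 1 library. Without the table as a block, DLL3, NEURL1B, DTX1 and APH1B were the only pathway genes called, and HES6 (adjusted p = 0.337), TLE2 (0.748) and TLE3 (0.0691) lost their calls.

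**Figure D4:**
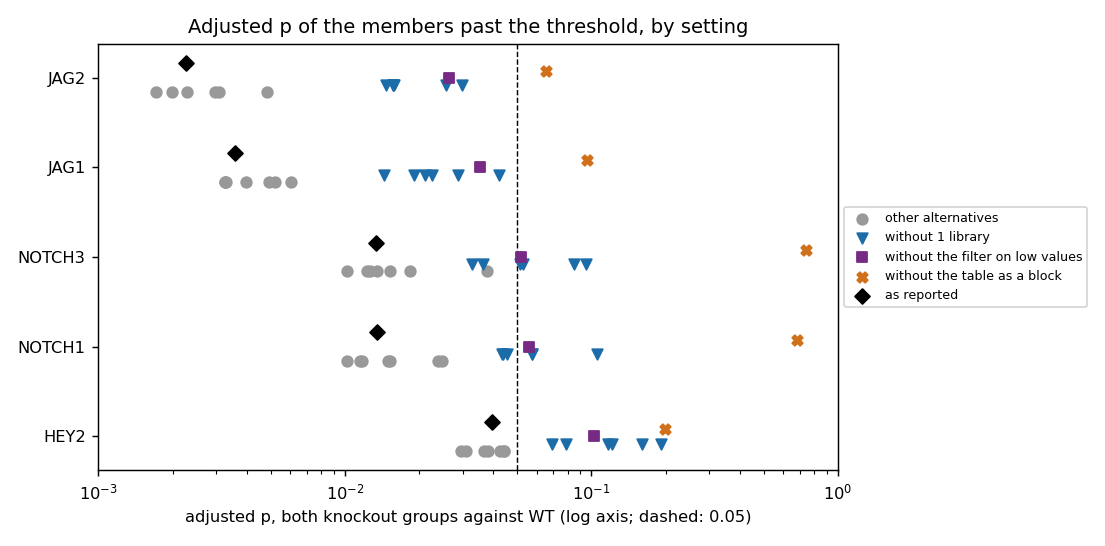
Adjusted p by limma (x axis, log scale, dashed line at 0.05) of the 5 Notch genes past the threshold in both knockout groups against WT, as reported and under each alternative. Black diamonds are the values as reported, triangles leave out 1 library, squares drop the filter on low values and crosses drop the table as a block. JAG1 and JAG2 lie above 0.05 only without the block, NOTCH1, NOTCH3 and HEY2 also without the filter, NOTCH1 and NOTCH3 with some libraries left out, and HEY2 with each of them left out.

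To see which genes shared the pattern of the largest rise and the largest fall, genes with a mean of at least 5 FPKM were ranked by the root mean square distance of their 4 within-table log2 differences from those of JAG2 (9477 genes compared) and of HEY2 (9476). The nearest to JAG2 were SERPINB9, a granzyme B inhibitor (distance 0.048), ECHDC2, a mitochondrial enoyl-CoA hydratase family member (0.055), and IFITM1, an interferon-induced membrane protein (0.073). The nearest to HEY2 were NBN, a DNA break repair protein (0.033), MAX, the partner of MYC (0.049), and PIMREG, a mitotic regulator (0.062). Within a distance of 0.15 lay 46 genes for JAG2 and 391 for HEY2, so neither pattern is particular to the genes named. The distances rest on 4 differences that share 2 WT libraries. SERPINB9 and IFITM1 had WT means of 182 and 169 FPKM, against 2.28 FPKM for JAG2. The log2(FPKM + 1) scale shrinks changes at low values, so equal differences are larger folds for JAG2 than for these genes. With a mean of 4.41 FPKM, JAG2 was itself below the minimum of 5 FPKM set for the genes compared.

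Other cell types that a day 2 culture could hold were checked by their markers in the same libraries. Definitive endoderm markers summed to between 2825 and 3337 FPKM in WT and to between 1275 and 1929.5 FPKM in the knockout libraries, most of it CER1, while SOX17 and FOXA1 rose and FOXA2 and CER1 fell. FOXA1, like MSGN1 and GABRP in the lists that follow, had a WT mean under 1 FPKM and entered the test through its knockout values. Paraxial mesoderm markers, the tissue in which Notch sets the somite rhythm, summed to between 16.5 and 20.8 FPKM in WT and between 18.2 and 25.1 FPKM in the knockout libraries. MSGN1 rose there, from 0 and 1.07 FPKM in WT to between 2.41 and 4.31 FPKM, while TBX6 and TCF15 did not pass the test. Neural markers, nearly all OTX2, summed to between 81.7 and 96.3 FPKM in WT and between 50.6 and 74.3 FPKM in the knockout libraries, with 0 of 1 tested past the threshold by limma. PAX6, below the filter and not tested, was at 1.29 and 2.38 FPKM in WT and between 0.0242 and 0.184 FPKM in the knockout libraries. The other 6 neural markers were under 1 FPKM in every library. Amnion and trophoblast markers summed to between 36.2 and 56.8 FPKM and between 37.8 and 64.5 FPKM, with 2 higher and 1 lower. Blood markers summed to at most 7.74 FPKM in any library, PTPRC and HBZ at 0 in all. The part of these cell types in the Notch values was not tested.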

How the data were processed

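RNA-seq libraries were made by the study from 2 ug of total RNA with an Illumina TruSeq kit. The authors deposited FPKM values per gene symbol in 2 tables of 38100 and 58324 rows, and the unit is named only in the second. The submitters' processing notes name hg19, BWA, Bowtie and RSEM, with no versions or roles. Annotation and strand handling are not given in the sources used here. The study names a pair of sequencing companies without saying which libraries each ran. Table columns give the group but no replicate number. Per-sample columns not used numbered 0, and no 2 libraries were identical.

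Symbols listed more than once (94 and 340) were left out. Genes with a mean of at least 1 FPKM (13909 of 37803) were fitted on log2(FPKM + 1) with limma (version 3.58.1, R version 4.3.3): 3 group means plus the table as a block, eBayes with a mean-variance trend, 2 residual and 3.34 prior degrees of freedom, two-sided p-values, Benjamini-Hochberg adjustment over all genes tested and a threshold of 0.05. The model was tested on simulated data. The pairing comes from the shared tables: the deviations of the groups between tables correlated across genes with r = 0.616, 0.666 and 0.676. DLL4, HEY1 and HEYL, the members below the filter, were given an exact permutation test of the WT label within tables. FPKM are not counts, so no count model was fitted, and unknown depth leaves no counting interval.

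The members and gene lists were chosen with earlier results of these data known. Besides SNAI1 and the members, the rule names the genes of each list past the threshold in both groups against WT with all 4 within-table differences in the same direction, at most the 3 largest per list, canonical ligands, receptors and HES/HEY genes below the filter, and the 3 nearest genes to the largest rise and the largest fall. Of the 9 marker lists only counts, summed FPKM and the markers a result turns on are given. The alternatives dropped the block or the filter, or used pseudocounts of 0.1 and 10, a minimum mean of 5 FPKM, quantile normalization, median-ratio scaling, equal library means, no trend and leaving out each library. Overlapping genes were looked up by symbol in GENCODE release 29.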

Additional observations from a re-analysis of the deposited data

How the results depend on the processing

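Over the 7 Notch genes tested and 4 contrasts, 416 alternative values were computed: 341 kept direction and side of the threshold, 69 kept direction and lost the call, and 6 changed sign. Of the 341, 100 came from SNAI1_KO_2 against SNAI1_KO_1, where there was no call to lose. NOTCH2 and HES1 had none to lose either. In both groups against WT, the call was lost in 5 of 15 alternatives for NOTCH1 and 6 of 15 for NOTCH3. It was lost in 1 of 15 for JAG1, 1 of 14 for JAG2 and 8 of 15 for HEY2. Without the table as a replicate block, 1065 genes were called in both knockout groups against WT, 576 in SNAI1_KO_1 and 698 in SNAI1_KO_2, with 4 of the pathway genes and 0 of the members by limma, and 71.9% of all calls were higher instead of 50.6%. The member values were then NOTCH1 0.45, NOTCH3 0.34, JAG1 0.86, JAG2 0.98 and HEY2 -0.38, the same log2 differences with larger adjusted p-values. Without the filter on low values the counts were 2139, 1008 and 1216, with 13 pathway genes and 2 members, among 30248 genes tested, and NOTCH1 (0.45), NOTCH3 (0.34) and HEY2 (-0.38) were no longer called. The cause was not tested.

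With 1 library left out, 1825 to 2919 genes were called in both groups (1825 without the WT library of the second table and 1886 without that of the first), 1034 to 2479 in SNAI1_KO_1 and 1240 to 2781 in SNAI1_KO_2, with 12 to 21 pathway genes and 2 to 4 members. Fewer libraries were then fitted, and a group left with 1 library is assumed to vary like the others. The log2 difference ran from 0.35 to 0.54 for NOTCH1, -0.31 to -0.043 for NOTCH2, 0.31 to 0.37 for NOTCH3, 0.77 to 0.94 for JAG1, 0.95 to 1.003 for JAG2, -0.26 to -0.046 for HES1 and -0.43 to -0.33 for HEY2. The sign changed for NOTCH2 in SNAI1_KO_2 against WT without the WT library (0.027) or the SNAI1_KO_2 library (0.0018) of the first table, over a range of -0.24 to 0.027. Between the knockout groups it changed for NOTCH3 without the SNAI1_KO_1 (0.048) or SNAI1_KO_2 (0.057) library of the first table (range -0.074 to 0.057) and for HES1 without the SNAI1_KO_1 (-0.11) or SNAI1_KO_2 (-0.0032) library of the second table (range -0.11 to 0.26), none of them called.

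Changes of pseudocount, scaling or trend, or a minimum mean of 5 FPKM, left the 5 calls in both groups against WT in place, except that JAG2 falls below that minimum and has no value. The pseudocount of 10 shrank the log2 differences to 0.27 for NOTCH1, 0.27 for NOTCH3, 0.34 for JAG1, 0.33 for JAG2 and -0.17 for HEY2, and that of 0.1 gave 0.48, 0.35, 1.02, 1.23 and -0.43. Scaling moved the share of higher calls among all genes to between 44.9% and 54.6%. Between the knockout groups 0 genes were called by limma under every alternative, with 81 to 1313 at an unadjusted p under 0.05. Absolute depth is unknown, so precision at low FPKM, as for DLL4, HEY1 and HEYL, cannot be stated.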

Other observations

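The genes in this paragraph were chosen after their values were seen. DLL1, the Delta-like ligand of presomitic mesoderm, was below the filter and was at 0.0869 (WT), 0.630 (SNAI1_KO_1) and 1.19 (SNAI1_KO_2) FPKM in the first table and at 0.3002, 1.07 and 0.859 FPKM in the second, so that all knockout libraries were above both WT libraries. HES7, an oscillating repressor of the somite clock, was at 0.0598, 0.305 and 0.348 FPKM in the first table and at 0.191, 0.327 and 0.334 FPKM in the second, also without overlap. It was at most 0.348 FPKM and likewise below the filter. Neither DLL1 nor HES7 was tested. The share of genes that separate in this way (34%) was computed only over the genes tested. NRARP, a feedback inhibitor that Notch induces, was at 2.57, 4.23 and 4.57 FPKM in the first table and at 4.70, 8.63 and 8.20 FPKM in the second, and it rose by 0.66 on the log2 scale (adjusted p = 0.00795 by limma). Its WT library of the second table was above both knockout libraries of the first, so the groups overlapped over the tables. CTBP2, a transcriptional corepressor, was at 42.8, 65.5 and 68.3 FPKM in the first table and at 64.4, 98.6 and 103.5 FPKM in the second, and it rose by 0.64 (adjusted p = 0.00081). Neither the NRARP call nor the CTBP2 call held without the table as a block.

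Several members share their locus with other annotated genes. In GENCODE release 29, NOTCH1 overlaps the antisense gene AL592301.1 (at most 1.31 FPKM in any library), HEY2 overlaps AL365259.1 (at most 0.397 FPKM), and JAG1 and HEYL overlap antisense genes listed at 0. Without knowledge of strand in the counting, fragments of a gene and its antisense partner cannot be told apart.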
